A study of Mus musculus with 54 samples.

Results

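The region described here runs along mouse chromosome 1 from 74600000 to 78400000 (mm10) and holds the genes Wnt6, Ihh, Epha4 and Pax3. Its members were all CTCF, Rad21 and Smc3 ChIP-seq peaks with a summit inside these limits, followed as merged sites, where a site is a stretch covered by peaks that overlap by at least 1 bp. Of 781274 peaks in 44 ChIP libraries, 1763 had their summit in the region. They merged into 135 of 68126 CTCF sites (22 libraries), 25 of 14282 Rad21 sites (8 libraries) and 111 of 46774 Smc3 sites (14 libraries), or 153 of 75882 sites when the 3 proteins were merged together. No measured value entered the choice of the region.

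The study asked how CTCF binding and cohesin depend on the first zinc finger of CTCF, a part of the protein linked to RNA binding, in mouse embryonic stem cells (ESCs) and after 2 days of their differentiation into neural progenitor cells (NPCs). The rescue lines were clones of the E14TG2a ESC line that carried mAID-eGFP on both endogenous CTCF alleles, OsTIR1(F74G) at Rosa26, an mCherry reporter at Hb9 and a doxycycline-inducible Flag-Halo CTCF at Tigre, either with the zinc finger deleted (ΔZF1) or whole (WT). For 24 h before harvest all rescue cells were given 1 µM 5-Ph-IAA and 1 µg/mL doxycycline, so that the endogenous CTCF was degraded while the added CTCF was expressed. CTCF was profiled in 4 ΔZF1 and 4 WT libraries of NPCs and as many of ESCs, and Rad21 and Smc3 in 2 libraries of each of these groups. PodxlpA and Grb10pA NPCs, in which both alleles of Podxl or Grb10 carried an inserted eGFP followed by a polyadenylation signal (pA), and parental E14 NPCs had normal CTCF, received neither compound, and had 2 CTCF and 2 Smc3 libraries each. Each rescue genotype was 1 clone, so the genotype and the clone cannot be told apart. The labels did not say whether replicates were separate cultures, and p-values below measure only the spread between these libraries. The files used here hold no contact maps, expression values or reads, so domain edges, marker genes of the cell types and the deleted zinc finger could not be checked from them.

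CTCF is a zinc finger protein that binds DNA over a long, directional motif. Cohesin, a ring that includes Smc3 and Rad21, extrudes DNA loops and is halted at bound CTCF, so that sites with facing motifs tend to anchor loops and to mark the edges of domains. Wnt6 encodes a secreted Wnt ligand, Ihh the hedgehog ligand of cartilage and bone, Epha4 an ephrin receptor tyrosine kinase that guides axons, and Pax3 a paired-box transcription factor of the dorsal neural tube and neural crest. This stretch is known from work on digit malformations, in which deletions and inversions across the borders around Epha4 let its limb enhancers act on Pax3, Wnt6 or Ihh.

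The reference bases at 7 sites on which the results turn are printed here, 5′ to 3′ on the strand named, from RefSeq GRCm38.p6. Capitals mark the 14 bases that matched the core CTCF motif with at most 2 mismatches, on either strand, within 50 bp of the site's summit. They show the motif at the strongest site of the region (Slc4a3), at sites of Wnt6, Wnt10a, Ihh and Epha4, at the Ptprn site without a peak in ΔZF1 NPCs, and at a site between Epha4 and Pax3.
Wnt6 3′ site (chr1:74784655-74784684, plus strand): attagattCCAGCAGGGGGCGCtgtctgag
Wnt10a-side site (chr1:74808293-74808322, minus strand): aatcctcaCCAACAGAGGGCGCcatgtcct
Ihh intron site (chr1:74948997-74949026, plus strand): aaaggtgcCCAGTAGGTGTCACcgcagcct
Ptprn site (chr1:75254408-75254437, minus strand): cattttgaCCAACAGATGGCGCagtggcgc
Slc4a3 site (chr1:75559725-75559754, minus strand): aatcggatCCGCCAGGTGGCAGccttcccc
Epha4 site (chr1:77516436-77516465, minus strand): gcatctggCCGGCAGGTGGCGCggttggtt
Epha4 to Pax3 site (chr1:77972542-77972571, minus strand): cttacaaaCCTCCAGGTGGCGCtgttgctg

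The motif was present at 77 of the 135 CTCF sites (57.0%, 95% Wilson interval 48.6 to 65.1), against 61.3% of all CTCF sites. In windows moved 1000 bp away it was found at 1 of 135 sites (0.741%), against 2.94% over all sites. A single family of sequences made up a large part of these matches: at 21 of the 77 sites the matched bases began with CCAGAAGAGGGC. These 21 matches all lay in bases that the reference marks as repeats, and 3 of them are printed as examples, at the sites nearest Cyp27a1 and A630095N17Rik and at a site 266251 bp downstream of the Pax3 start. B2 short interspersed elements, a rodent repeat family, are known to carry a CTCF motif.
Cyp27a1-side site (minus strand, chr1:74711309-74711338): cagacataCCAGAAGAGGGCATcagacccc
A630095N17Rik-side site (plus strand, chr1:75232667-75232696): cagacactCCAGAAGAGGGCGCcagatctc
Pax3-side site (minus strand, chr1:77930856-77930885): cacagaagCCAGAAGAGGGCACtggatccc

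The shared bases were frequent among sites called in few libraries and rare among those called in many. They were the match at 10 of 21 motif sites called in 1 or 2 CTCF libraries, 10 of 21 called in 3 to 9, 1 of 29 called in 10 to 21, and 0 of 6 called in all 22. Over all CTCF sites with a motif the same shares were 38.3%, 30.0%, 13.7% and 3.86%, and the share over all of them was 25.0%, against 27.3% in the region. Few of these sites had cohesin: of the 11 called in at least 3 CTCF libraries, 2 overlapped an Smc3 or Rad21 peak in any library, against 41 of 45 other motif sites called in at least 3. The exceptions were the A630095N17Rik-side site, with a CTCF peak in 14 libraries and Smc3 in 1, and the Pax3-side site, with CTCF in 9, Smc3 in 7 and Rad21 in 2. The 11 and the 45 were not matched for recurrence. Of the 11, 10 were called in 3 to 9 libraries, whereas most of the 45 were called in 10 or more. No genome share was counted for this contrast. The shared bases were noticed in the printed sequences and were counted afterwards, and the part that read mapping in repeats plays in the calls was not tested.

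Libraries differed in depth and in the number of peaks, and this bears on every count of calls. The background that the peak caller used, read as fragments per position at its lowest, was 0.219 to 2.39 in CTCF, 2.06 to 3.72 in Rad21 and 0.276 to 3.51 in Smc3 libraries. Among CTCF rescue libraries, replicates 1 and 4 had 1.14 to 2.39 with median peak widths of 352 to 447 bp, and replicates 2 and 3 had 0.392 to 0.905 with widths of 190 to 301 bp. Total CTCF peaks were 13639, 10242, 5755 and 33452 in ΔZF1 NPC replicates 1 to 4, against 30555, 21339, 24908 and 15052 in WT NPCs. ΔZF1 ESCs had 45941, 17092, 15779 and 16413, and WT ESCs 43003, 21995, 23184 and 11189. The region held 15 to 97 CTCF, 4 to 22 Rad21 and 18 to 88 Smc3 peaks per library. Most values below are therefore a call (a peak or none) or the peak's percentile among all peaks of its own library by fold enrichment over background, where 100 is the strongest. Fold enrichments and fragment counts are given at a few sites and are not scaled between libraries.

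Binding in the region was uneven. Of the 135 CTCF sites, 9 were called in all 22 libraries (6.67%, against 2.76% of all CTCF sites), 19 in at least 20, 88 in at least 3 and 47 in 1 or 2 (34.8%, against 33.9%). The annotation placed 39 in introns, 17 in untranslated regions, 14 in coding exons, 4 in other exons and 61 between genes, and 25 lay within 1 kb of a protein-coding start. From the region's start to Ihh (351.673 kb) there were 29 sites called in at least 3 libraries, or 8.25 per 100 kb. From Ihh to Epha4 (2563.416 kb) there were 48, or 1.87 per 100 kb, from Epha4 to Pax3 (682.046 kb) 8, or 1.17 per 100 kb, and from Pax3 to the region's end (202.866 kb) 3, or 1.48 per 100 kb. The rate from Ihh to Epha4 averages a densely bound part on the side of Ihh with a stretch of 1587.911 kb that held no such site. Wnt6 and Ihh thus lay in a densely bound, gene-rich stretch, and Epha4 and Pax3 in a sparse one, with 12, 27, 1 and 1 protein-coding starts in the same 4 intervals. The median number of peaks per library in these intervals was 9, 16, 3.5 and 1 for Smc3 and 3.5, 5.5, 1 and 0 for Rad21.

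**Figure D1:**
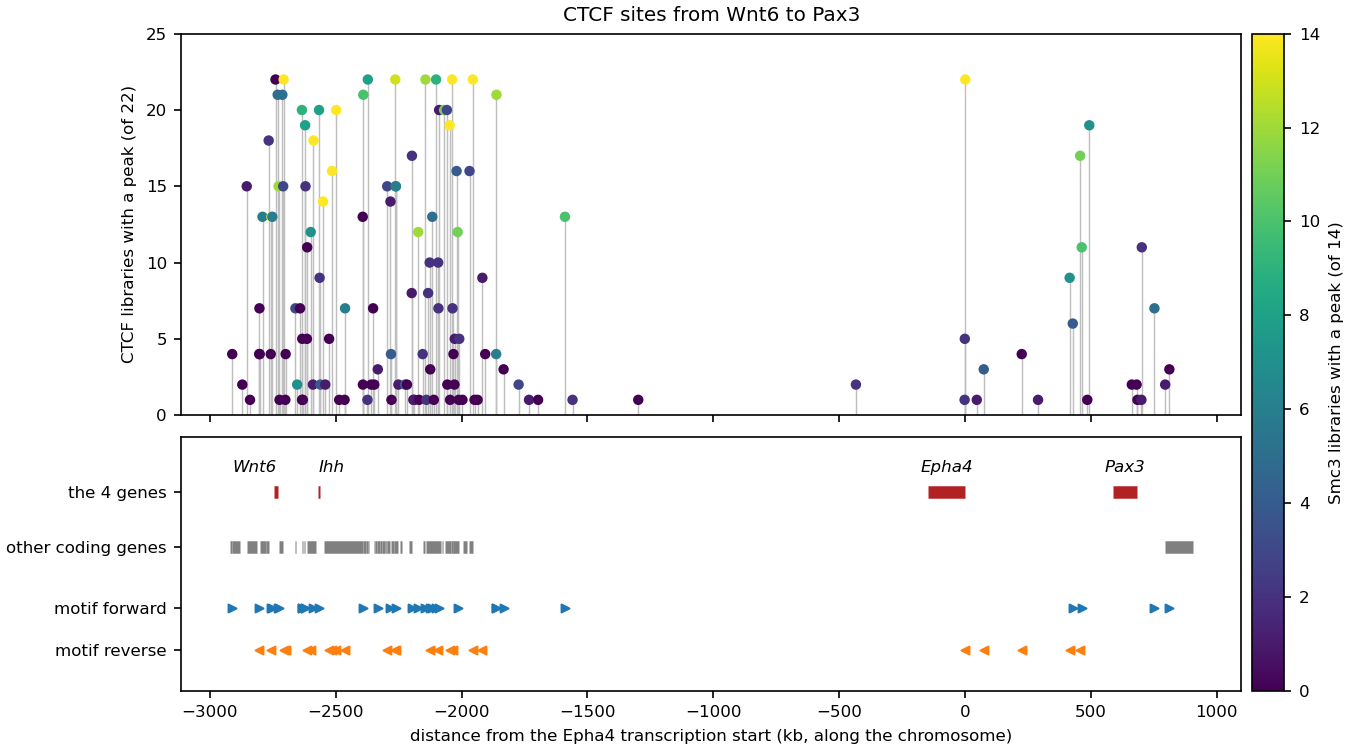
The upper panel plots each of the 135 CTCF sites by its distance from the Epha4 start (kb) and by the number of the 22 CTCF libraries with a peak, coloured by the number of Smc3 libraries with a peak (of 14); the lower panel shows the genes and the strand of the core motif at sites called in at least 3 libraries. Sites crowd on the left, around Wnt6 and Ihh, and a single site called in 22 libraries stands at Epha4 after a stretch of 1587.911 kb without a site called in 3 or more.

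The longest stretch without a CTCF site called in at least 3 libraries ran from 75926177 to 77514087 (1587.911 kb) and held the Epha4 gene but for its start. Of 44987 such stretches in the genome 123 were at least as long, and the median was 16.8 kb, against 10.4 kb in the region. Over the 44 libraries it had 5 CTCF peaks in 5 libraries, 8 Smc3 peaks in 5 libraries and 0 Rad21 peaks. The next longest were 75682363 to 75925593 (243.231 kb), 78009241 to 78216564 (207.324 kb), which held Pax3, 77741138 to 77930623 (189.486 kb) and 77589779 to 77740386 (150.608 kb). Of these 5 stretches 3 lay past the Epha4 start.

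Motif strands differed between the intervals in their counts. At sites called in at least 3 libraries, 12 motifs pointed forward and 6 in reverse from the region's start to Ihh, and 16 and 13 from Ihh to Epha4. From Epha4 to Pax3 it was 2 forward and 5 in reverse, and past Pax3 2 and 0. Sites of the 2 strands were interleaved in the dense stretch, whereas the first 4 motifs met on going from the Epha4 start towards Pax3 were all in reverse. These are counts of few sites and no test was made of them.

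At Epha4, CTCF was called in all 22 libraries at 77516047 to 77516942, 1357 bp upstream of the gene's start and in an exon of the lincRNA gene Gm28386. Its percentiles were 98.1, 89.9, 40.1 and 98.6 in ΔZF1 NPC replicates 1 to 4, against 96.3, 94.5, 94.4 and 92.9 in WT NPCs. In ESCs they were 98.1, 94.2, 92.5 and 94.1 for ΔZF1, against 91.3, 92.1, 92.7 and 69.0 for WT. The site was among the strongest peaks of 14 of the 16 rescue libraries, and only ΔZF1 NPC replicate 3, with the fewest peaks of all, and WT ESC replicate 4 were far lower. PodxlpA NPCs had 84.9 and 41.5 and Grb10pA NPCs 93.4 and 88.3, against 19.9 and 83.8 in E14 NPCs, so the 2 libraries of PodxlpA and of E14 NPCs were far apart. Smc3 had a peak there in 14 of 14 libraries and Rad21 in 7 of 8, the exception being a ΔZF1 ESC library. Smc3 fold enrichment was 31.8 and 25.4 in ΔZF1 NPCs, against 23.0 and 14.9 in WT NPCs, and 13.5 and 13.9 in ΔZF1 ESCs, against 12.2 and 7.57 in WT ESCs, on a scale that is not equalised between libraries.

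This site stood far from other recurrent binding. The nearest site called in at least 10 CTCF libraries was 1589.9 kb away on the side of Ihh and 455.3 kb away on the side of Pax3, a sum of 2045.2 kb. Among 1880 sites of the genome that were called in all 22 libraries and had such neighbours on both sides, 32 (1.70%) had a sum as long, and the median sum was 57.8 kb. Next to it in the first intron of Epha4, a site at 77514088 to 77514741 was called in 5 libraries, of which 2 were ΔZF1 NPC, 2 WT NPC and 1 ΔZF1 ESC, and a site at 77513574 to 77513746 in 1. With the same number of peaks kept in every library, the strongest first, the upstream site was still called in 20 libraries and these neighbours in 1 and 0.

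**Figure D2:**
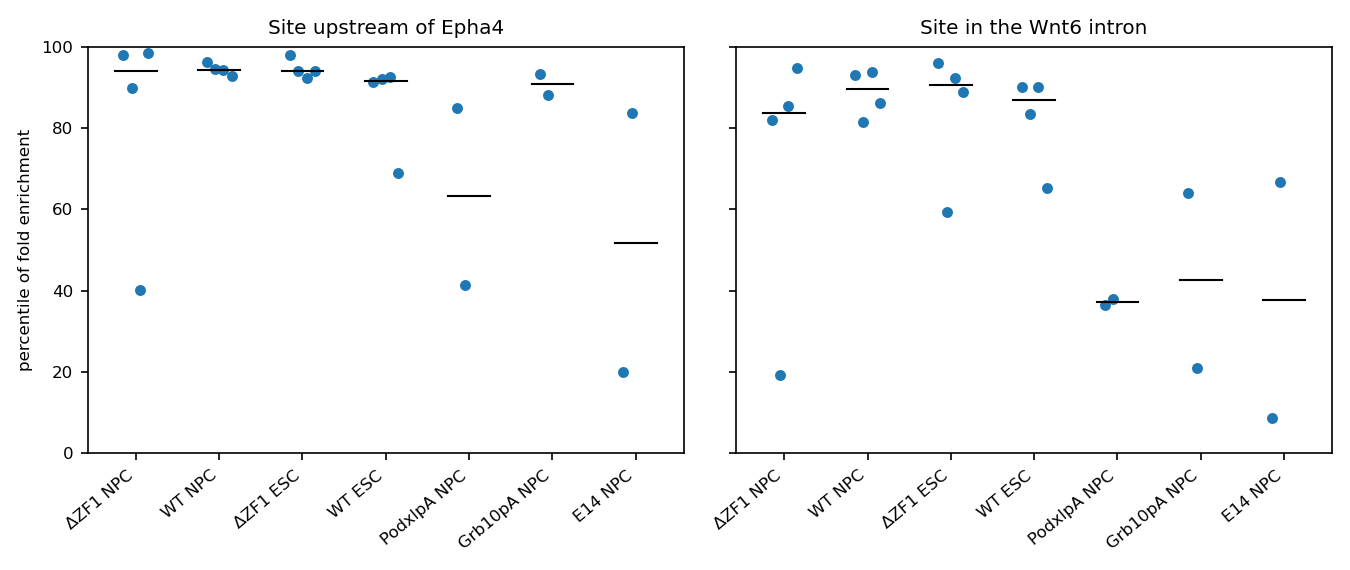
Points are single CTCF libraries and lines the median of a group; the vertical axis is the percentile of fold enrichment among the library's own peaks, for the site upstream of Epha4 (left panel) and for the site in the Wnt6 intron (right panel). WT NPC replicates sit between 92.9 and 96.3 at Epha4, and ΔZF1 NPC replicate 3 is at 40.1.

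Wnt6 had CTCF on each side of its start and inside the gene. A site in its intron at 74775646 to 74777069, 4141 bp past the start, was called in all 22 libraries, and its percentiles were 81.9, 19.2, 85.4 and 94.9 in ΔZF1 NPCs, against 93.1, 81.5, 93.9 and 86.1 in WT NPCs. In ESCs they were 96.2, 59.3, 92.3 and 88.9 for ΔZF1, against 90.3, 83.6, 90.1 and 65.4 for WT. The groups overlapped in both cell types, and ΔZF1 NPC replicate 2 was the lowest of the rescue libraries. Cells without a CTCF rescue had values in the lower part of this range or below it, 36.4 and 37.8 in PodxlpA and 64.1 and 20.96 in Grb10pA NPCs, against 8.58 and 66.9 in E14 NPCs. It had no core motif and no Smc3 or Rad21 peak in any of 22 cohesin libraries. Of the 1883 sites in the genome called in all CTCF libraries, 35 (1.86%) lacked cohesin in this way, and 19 of those 35 (54.3%) held the motif. With equal peak numbers it was called in 14 libraries, and an antisense gene, Gm29539, overlaps it.

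The other Wnt6 sites had the motif and some cohesin. At the gene's 3′ end, in the untranslated region, the site at 74783682 to 74784949 was called in 21 libraries, and its percentiles were 79.6, 89.0 and 89.5 in ΔZF1 NPC replicates 1, 2 and 4, with no peak in replicate 3, against 91.3, 86.3, 79.4 and 67.0 in WT NPCs. Smc3 was called there in 5 libraries and Rad21 in none. The upstream site at 74763037 to 74763509, 8604 bp before the start, was called in 13 libraries. It was absent from the ΔZF1 NPC lists, present in 2 of 4 WT NPC, 2 of 4 ΔZF1 ESC and 3 of 4 WT ESC lists and in all 6 PodxlpA, Grb10pA and E14 lists, and with equal peak numbers it was called in 0 libraries. Past Wnt10a, the neighbouring gene of another Wnt ligand, a site at 74807767 to 74809468 was called in 22 libraries with a median percentile of 85.6, with Smc3 in 14 and Rad21 in 3.

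At Ihh the peak over the start of the gene was called in few libraries. The site over the start and untranslated region (74950251 to 74952132) was called in 9 libraries, and its percentiles were 72.0 and 73.1 in ΔZF1 NPC replicates 1 and 4, against 71.5, 20.6 and 41.4 in WT NPC replicates 1, 2 and 4. In ESCs they were 4.37 and 20.7 for ΔZF1, against 0.334 and 10.4 for WT, both in replicates 1 and 4. It was thus called mostly in the deeper replicates, where NPC percentiles were above those of ESCs, and in 0 of the 6 PodxlpA, Grb10pA and E14 libraries. These groups of called libraries are too few for a test. The site in the Ihh intron (74948022 to 74949683), 2651 bp past the start, was called in 20 libraries: in 2 of 4 ΔZF1 NPC libraries, with percentiles of 23.6 and 84.0, against 88.2, 87.9, 86.5 and 74.0 in WT NPCs. A site 2656 bp upstream (74954233 to 74954422) was called in the 2 Grb10pA libraries and in no other CTCF library. Its peaks were weak, with percentiles of 3.70 and 16.6 and 9 fragments at each summit, and the core motif was absent. Smc3 had a peak there in 4 libraries, which were both of ΔZF1 NPCs, replicate 1 of WT NPCs and 1 of Grb10pA NPCs.

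The sites around Ihh from 74926628 to 75017801 were singled out after their values were seen. They run from an intron of Cfap65, a cilia protein gene, into Nhej1, a DNA end-joining factor, and leave out other sites of both genes. Past these limits, the Nhej1 intron site at 75124383 to 75124991 had a peak in 4 WT NPC and 3 ΔZF1 NPC libraries. The one at 75122240 to 75122749 had it in 4 and 1. Of the 7 within the limits that were called in at least 3 libraries, 6 had a peak in at least 3 of 4 WT NPC libraries. Each of these 6 had a peak in 1 or 2 of 4 ΔZF1 NPC libraries. Of all sites with a peak in at least 3 WT NPC libraries, 21 of 43 in the region (48.8%) and 63.3% in the genome had one in fewer than 3 ΔZF1 NPC libraries. Sites considered next were the Cfap65 intron site (74926628 to 74927168), the site between the genes (74964326 to 74965038) and an Nhej1 intron site (75000470 to 75000971). At these 3 sites the only ΔZF1 NPC peak was that of replicate 4, with percentiles of 78.8, 86.1 and 81.6. The WT NPC percentiles at the first of these were 49.0, 67.6, 86.5 and 60.1, at the next 72.2, 54.2, 80.1 and 69.5, and at the third 72.2, 86.7 and 89.0 with no peak in replicate 4. The missing calls were all in ΔZF1 NPC replicates 1 to 3, the libraries with the fewest peaks among NPCs, and replicate 4, with 33452 peaks, ranked these 3 sites within or above the WT NPC range. Smc3 was called at these 3 sites, and at the further Nhej1 site (75016735 to 75017801), in 14 of 14 libraries, both ΔZF1 NPC libraries included. Rad21, with 2 libraries a group, was called at the Cfap65 intron site in 1 ΔZF1 NPC and 1 WT NPC library. At the site between the genes and at the Nhej1 site from 75000470 it was called in 0 ΔZF1 NPC and 2 WT NPC libraries. At the further Nhej1 site it was called in 1 and 2. These Rad21 calls were not tested. The part of peak number in these missing CTCF calls was not tested beyond the alternative with equal peak numbers given below.

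Pax3 had no recurrent CTCF site within 10 kb of its start. The site over its start and untranslated region (78196556 to 78197036) was called in 2 libraries, ΔZF1 NPC replicates 1 and 4, with percentiles of 29.3 and 8.10 and 17 and 23 fragments at the summit, against no peak in the 4 WT NPC libraries or in any other. Both are among the deeper libraries, and with equal peak numbers neither call was left. An intron site (78177757 to 78178107) was called in 2 libraries and an upstream one (78200153 to 78200510) in 1. Binding resumed at a group of 6 sites between 77930624 and 78009240, 188186 to 266251 bp downstream of the Pax3 start, called in 9, 6, 17, 11, 1 and 19 libraries. The 4 most often called of them, of which 77972241 to 77972849 and 78008718 to 78009240 were called in 17 and 19, had Smc3 in 7 to 11 libraries. At the first of this pair the percentiles were 49.3, 31.5 and 36.0 in ΔZF1 NPC replicates 1, 2 and 4, against 53.1, 53.6 and 42.0 in WT NPC replicates 1 to 3, and 84.6 and 80.2 in ΔZF1 ESC replicates 1 and 2, against 93.9, 53.5 and 21.3 in WT ESC replicates 1 to 3. These 6 sites were singled out after their values were seen and hold no cluster by the definition given below.

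Genes related to the 4 are given as a list chosen with earlier results known. A CTCF site called in at least 3 libraries lay within 10 kb of the start for 19 of 19 Wnt, 10 of 10 hedgehog pathway, 13 of 14 Eph receptor and 6 of 9 Pax genes. That is 48 of 52, against 59.2% of 21938 protein-coding genes, and 4 of 52 had a site called in all 22 libraries, against 5.32%. The genes without such a site were Epha8, Pax3, Pax4 and Pax8, so Pax3 was among the few of its list.

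The strongest site called in all 22 CTCF libraries was in the untranslated region of Slc4a3, an anion exchanger gene, at 75559254 to 75560156. Its percentiles were 97.7, 98.8, 96.1 and 98.7 in ΔZF1 NPCs, against 99.0, 99.4, 99.6 and 97.7 in WT NPCs, and 99.7, 99.2, 98.3 and 98.6 in ΔZF1 ESCs, against 99.8, 99.6, 99.3 and 98.9 in WT ESCs. Its fold enrichment was 22.4, 57.7, 21.3 and 30.3 in ΔZF1 NPCs, against 41.6, 78.2, 73.6 and 28.5 in WT NPCs. Replicates 1 to 3 were lower in ΔZF1 and replicate 4 was not, and fold enrichment is not scaled between libraries. The site was the only one called in all 22 CTCF, 8 Rad21 and 14 Smc3 libraries. Close to it by median percentile were sites in Chpf, a chondroitin synthesis gene (75477009 to 75477953, 98.3, Rad21 in 7 and Smc3 in 14), and Speg, a striated muscle kinase gene (75413637 to 75414352, 97.9, Rad21 in 0 and Smc3 in 9). Of the 9 sites, 8 overlapped Smc3 in at least 1 library (98.1% of such sites in the genome), 4 in all 14 (38.0%), 6 overlapped Rad21 in at least 1 (66.5%) and 1 in all 8 (9.88%). The exception for Smc3 was the Wnt6 intron site.

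**Figure D3:**
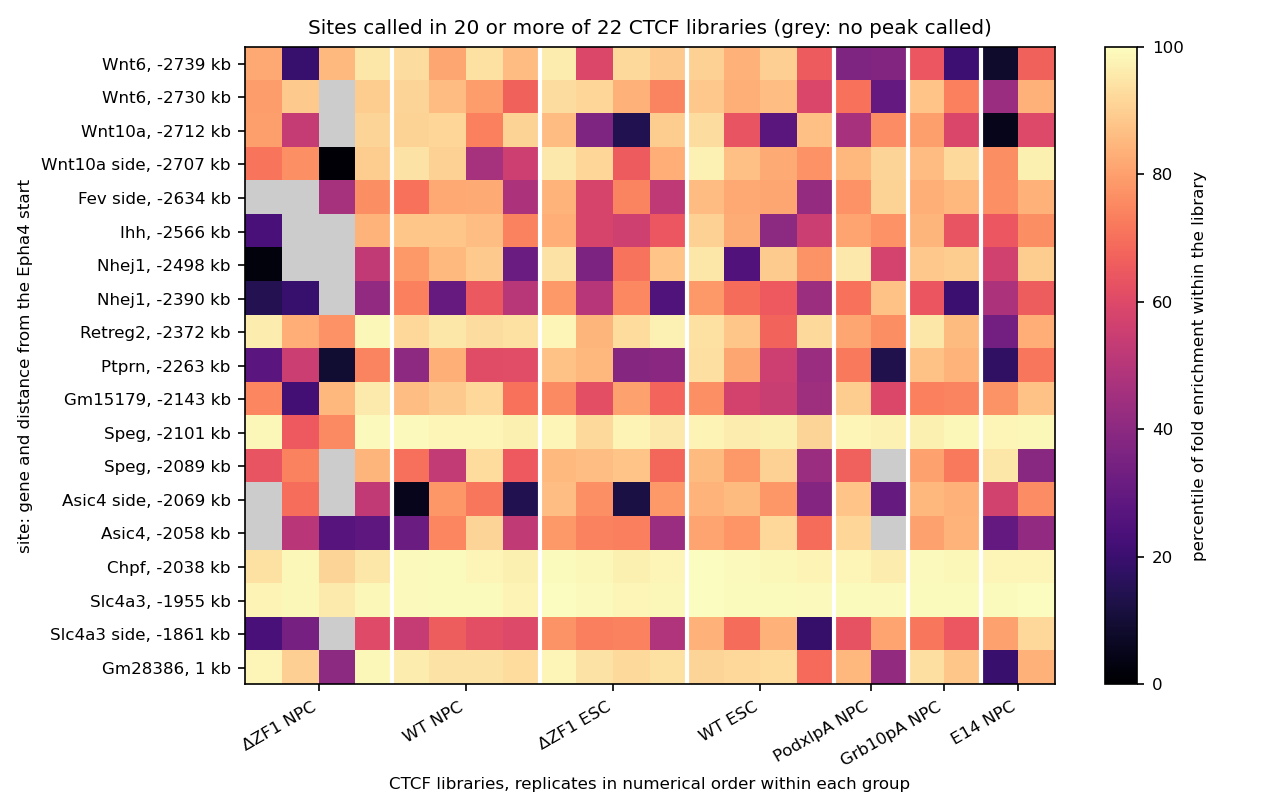
Each line is a CTCF site called in at least 20 of the 22 CTCF libraries, named by its gene or by the nearest start and by its distance from the Epha4 start (kb); columns are libraries and colour is the percentile of fold enrichment within the library, grey where no peak was called. The Slc4a3 and Chpf sites are bright in every column, and grey cells are frequent in ΔZF1 NPC libraries.

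Sites called in at least 3 libraries formed 10 clusters (at least 3 sites, each with its summit at most 10000 bp from the next), all between 74711130 and 75506412 and none near Epha4 or Pax3. The largest ran from 75467329 to 75506412 over Asic4, Chpf, Obsl1 and Tmem198 and had 8 sites, of which 6, 3, 1 and 7 were called in ΔZF1 NPCs, against 5, 4, 4 and 6 in WT NPCs. In ESCs 8, 3, 2 and 3 were called for ΔZF1, against 4, 4, 4 and 2 for WT, and 4 in each of the 6 PodxlpA, Grb10pA and E14 libraries. The cluster over Wnt6 (74775646 to 74788291) had 3 sites, of which 2, 3, 1 and 3 were called in ΔZF1 NPCs, against 3, 3, 3 and 2 in WT NPCs. The groups overlapped in both clusters.

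Cohesin sites away from CTCF were about as frequent in the region as in the genome, and most were called in 1 group. Of 111 merged Rad21 and Smc3 sites, 93 (83.8%) overlapped a CTCF site, against 83.7% in the genome. Of the other 18, 15 were called in 1 library, 0 in at least 3, 0 in Rad21, and 16 only in ΔZF1 NPC Smc3 libraries (88.9%, against 44.8% of 7824 such sites in the genome, a difference that was not tested). The 3 called in both ΔZF1 NPC Smc3 libraries lay in an intron of Epha4 (77496736 to 77497036), in a coding exon of Des, the muscle intermediate filament gene (75363566 to 75363742), and 355058 bp past the Slc4a3 start (75901258 to 75901439). ΔZF1 NPCs had the largest Smc3 lists of the rescue cells, 30516 and 34104 peaks, against 13710 and 27798 in WT NPCs.

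The share of a library's CTCF peaks that fell in the region did not differ between groups by more than the spread of replicates. In NPCs it was 0.268% ± 0.0324 for ΔZF1 and 0.253% ± 0.0323 for WT (SD, n = 4 each), a difference of 0.0147 percentage points (exact permutation test, two-sided p = 0.486). In ESCs it was 0.240% ± 0.0307 for ΔZF1 and 0.242% ± 0.0391 for WT, a difference of -0.0013 (exact permutation p = 0.971). WT NPCs were 0.0118 above WT ESCs (exact permutation p = 0.629) and ΔZF1 NPCs 0.0278 above ΔZF1 ESCs (exact permutation p = 0.257), and the smallest p this design allows is 0.0286. The ΔZF1 difference was 0.0160 larger in NPCs than in ESCs (permutation p = 0.622). None of these permutation tests paired libraries by replicate number. Smc3 gave 0.250% ± 0.0110 in ΔZF1 NPCs and 0.212% ± 0.00974 in WT NPCs (SD, n = 2 each), without overlap, but with 2 libraries a group no p can fall below 0.333, and with equal peak numbers the difference fell to 0.0036, against 0.0383 with all peaks.

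**Figure D4:**
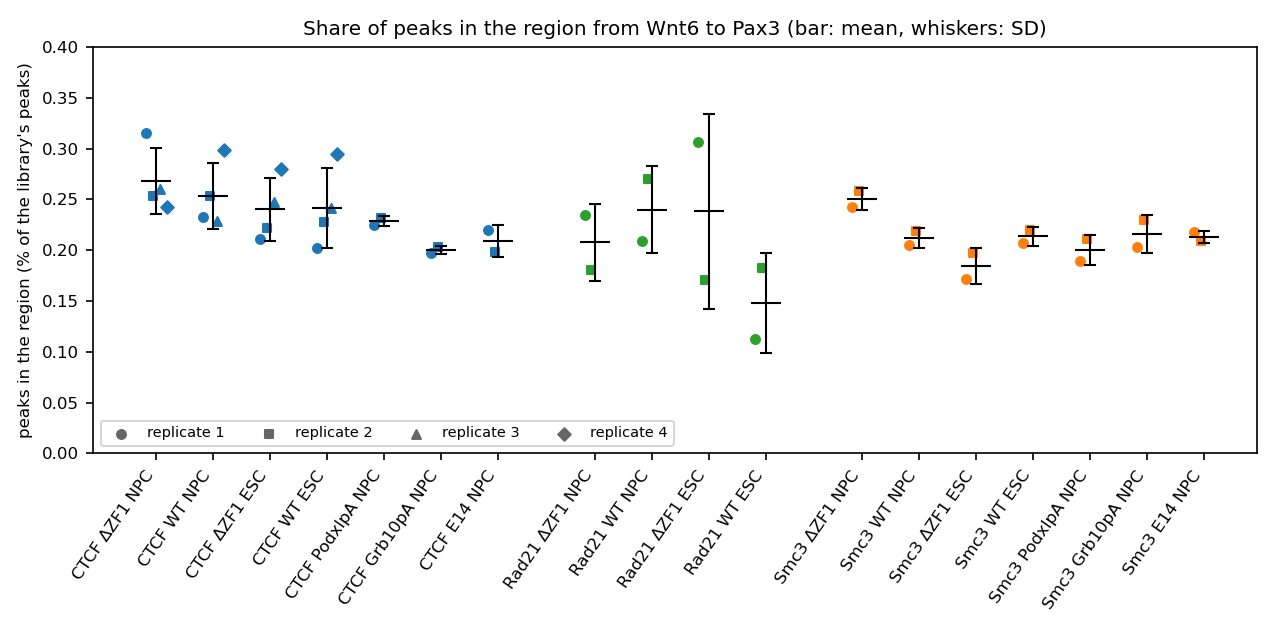
Points are libraries (shape: replicate number), bars the mean and whiskers the SD of the percentage of a library's peaks that lie in the region, by protein and group. The 4 CTCF rescue groups overlap, and the Smc3 libraries of ΔZF1 NPCs (0.243 and 0.258) lie above those of WT NPCs (0.205 and 0.219).

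Calls that switched completely were next to absent. A site was counted when it had a peak in 4 of 4 libraries of a group and 0 of 4 of the other. In NPCs 0 sites of the region were called only in ΔZF1 (background 0% of 2519 sites called in every ΔZF1 NPC library) and 1 of 33 only in WT (background 2.52% of 8851). That site lay in Ptprn, a gene of a phosphatase-like protein of secretory vesicles, at 75254002 to 75254821, and is the one whose motif is printed above. It had no peak in the 4 ΔZF1 NPC libraries, against percentiles of 25.4, 15.1, 41.0 and 14.9 and fragment counts of 23, 10, 20 and 23 in WT NPCs. In ESCs it was called in 2 ΔZF1 libraries, at 70.0 and 34.6, against 70.9, 61.8, 54.4 and 34.8 in the 4 WT libraries. Without ΔZF1 NPC replicate 4 the count of sites only in WT NPCs was 5, for which no background was counted. In ESCs 0 of 22 sites were called only in ΔZF1 (background 0.0149%) and 0 of 25 only in WT (background 0.311%). Between WT NPCs and WT ESCs it was 0 of 33 (background 0.429%) and 0 of 25 (background 0.383%), and between ΔZF1 NPCs and ΔZF1 ESCs 0 of 9 (background 0%) and 0 of 22 (background 1.9%).

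Peak strength was compared with limma on normal scores, that is, ranks of fold enrichment within a library set on a normal scale, at sites called in all libraries of both groups, with Benjamini-Hochberg adjustment over all such sites of the genome. In this fit, which did not pair libraries by replicate number, no site of the region passed an adjusted p of 0.05 in any of the 4 comparisons. Pairing by replicate number gave 1 call, described below. Between ΔZF1 and WT NPCs 0 of 9 were called (background 0% higher and 0% lower), and 0 had an unadjusted p under 0.05. Sites that lacked a peak in some ΔZF1 NPC library, the Ptprn site among them, were outside this comparison, and it says nothing of them. Between ΔZF1 and WT ESCs 0 of 19 were called (background 0% higher and 0.0386% lower). The only unadjusted p under 0.05 was at the Epha4 site, higher in ΔZF1 ESCs by 0.71 (SE 0.24, limma adjusted p = 0.435). Between ΔZF1 NPCs and ΔZF1 ESCs 0 of 9 were called (background 0% both ways) and 0 had such a p. With the replicate number as a block these 3 comparisons again gave 0 calls in the region, and the background was 0.0193% higher and 0.0386% lower for ESCs and 0% both ways for the others.

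Between WT NPCs and WT ESCs 0 of 25 sites were called (background 0.201% higher and 0.0501% lower) and 4 had an unadjusted p under 0.05. The site at 75371305 to 75371757, in Gm15179 and 3703 bp upstream of Speg, was higher in WT NPCs by 1.05 (SE 0.22, limma adjusted p = 0.0714), with percentiles of 86.4, 89.0, 92.2 and 70.6, against 76.8, 57.3, 54.5 and 44.3 in WT ESCs. The Ptprn site at 75254002 was lower by -0.96 (SE 0.28, limma adjusted p = 0.146). A Slc4a3 site at 75546300 differed by 1.06 (limma adjusted p = 0.231) and the Epha4 site by 0.58 (SE 0.24, limma adjusted p = 0.269). With the replicate number as a block, which pairs libraries of the same number, the site upstream of Speg was called (1.05, SE 0.20, limma adjusted p = 0.05), where the background was 2.16% higher and 0.719% lower. In each of the 4 same-numbered pairs its percentile was higher in WT NPCs than in WT ESCs, whereas across pairs the groups overlapped, with 70.6 in WT NPC replicate 4 and 76.8 in WT ESC replicate 1.

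Sites called in at least 3 of 4 libraries of a group were counted as reproducible, the study's own criterion. In ESCs 27 of 45 sites reproducible in WT were so in ΔZF1 (60%, 95% Wilson interval 45.5 to 73.0), against 64.3% in the genome. In NPCs it was 22 of 43 (51.2%, 36.8 to 65.4), against 36.7% in the genome. The 21 that were not reproducible in ΔZF1 NPCs lay 8 before Ihh, 12 between Ihh and Epha4, 0 between Epha4 and Pax3 and 1 past Pax3, and 0 sites were reproducible in ΔZF1 NPCs alone. The 3 sites between Epha4 and Pax3 that were reproducible in WT NPCs, the one upstream of Epha4 among them, were so in ΔZF1 NPCs as well. In ESCs 2 sites of this interval were reproducible in both WT and ΔZF1, and 2 in WT only. Without ΔZF1 NPC replicate 1, 2 or 4, when all 3 others had to have the peak, the NPC share was 23.3%, 23.3% and 20.9%, and with equal peak numbers, which left 11 sites reproducible in WT NPCs, it was 81.8% (9 of 11). In WT cells 34 of 45 sites reproducible in ESCs were so in NPCs (75.6%, 61.3 to 85.8), against 69.5% in the genome, and in ΔZF1 cells 19 of 33 (57.6%, 40.8 to 72.8), against 42.2%. Without ΔZF1 NPC replicate 1, 2 or 4 this last share was 30.3%, 30.3% and 27.3%. No genome share is given under these alternatives, so their values cannot be set against the genome percentages above. The Wilson intervals cover counting error only and treat neighbouring sites as independent.

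**Figure D5:**
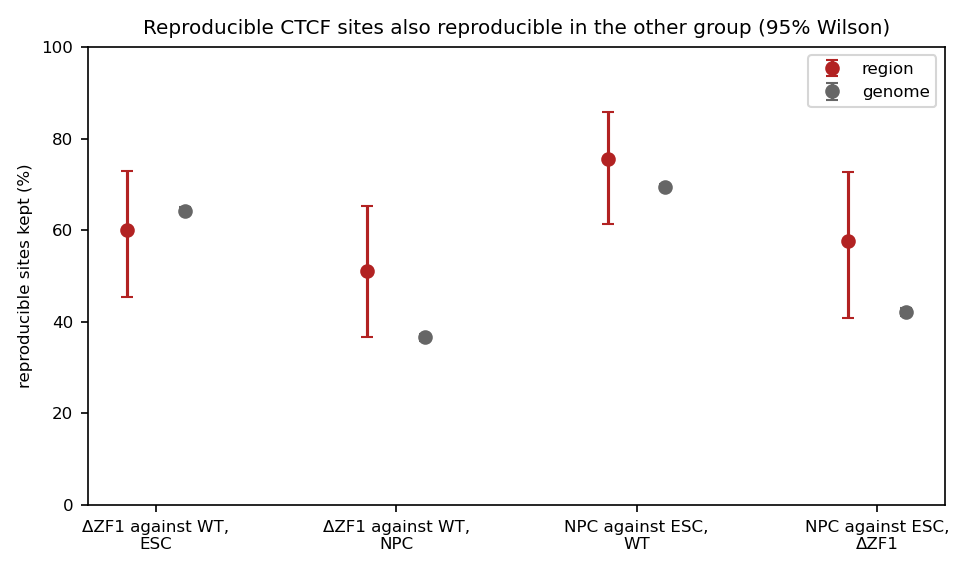
For each of the 4 CTCF comparisons, points give the percentage of sites reproducible in the group named after "against" that were also reproducible in the group named before it, for the region (red) and the genome (grey), with 95% Wilson intervals. The region has 51.2% for ΔZF1 against WT in NPCs, where the genome has 36.7%.

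In cells with normal CTCF, most sites called in the insertion lines were also called in E14 NPCs. PodxlpA NPCs had 36 sites called in both libraries, of which 34 were among the 49 of E14 NPCs (94.4% of the PodxlpA and 69.4% of the E14 sites, against 87.4% and 57.5% in the genome). Grb10pA NPCs had 44, of which 38 were shared (86.4% and 77.6%, against 76.6% and 73.6% in the genome). Called in both PodxlpA libraries and neither of E14 was 1 site (2.78% of 36, against 2.08% in the genome). The opposite was true of 2 (4.08% of 49, against 8.34% in the genome). For Grb10pA the counts were 2 (4.55% of 44, against 6.46%) and 4 (8.16% of 49, against 9.95%). The site upstream of Ihh was among the 2. With 2 libraries a group none of these was tested. Of the 88 sites called in at least 3 CTCF libraries, 24 had no peak in any of these 6 libraries, whose lowest background was 0.219 to 0.647 fragments per position (27.3%, against 20.9% of 45021 such sites in the genome), and 0 lacked a peak in all 16 rescue libraries (0.875% in the genome). Of the 11 recurrent sites with the CCAGAAGAGGGC bases 6 were among the 24, against 6 of the 45 other recurrent motif sites. These 2 sets were not matched in the number of libraries that called them. Of the 11, 10 were called in 3 to 9 CTCF libraries, whereas most of the 45 were called in 10 or more. No genome share was counted for this contrast.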

How the data were processed

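The authors aligned ChIP-seq reads to mm10 with Bowtie2, kept reads of high mapping quality, removed duplicates with Picard and blacklisted regions, and called peaks for each library with MACS2. The deposited peak lists give a fold enrichment over background at the summit (a ratio, column 7), −log10 p and −log10 q values, and an integer score, all as MACS2 wrote them, and no counts. The 10 input samples of the 54 were not used here, and which input served which library is not given in the sources used here. Peaks that overlapped by at least 1 bp were merged into sites. Genes came from GENCODE vM21 and bases from RefSeq GRCm38.p6, whose lower-case letters mark repeats. Fragment counts at summits were solved from the ratio and −log10 p, and 98.5 to 100% of sampled peaks per library with −log10 p up to 60 came out whole within 0.002 in −log10 p (1561 of 1564 in the region). The CTCF core motif was matched with at most 2 mismatches.

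Normal scores of fold enrichment were compared with limma 3.58.1 (R 4.3.3), the code having been tested on simulated data. Shares were compared by exact permutation in scipy 1.17.1 (Python 3.11.15, numpy 2.4.6, pandas 2.3.3), and intervals are 95% Wilson. Sites were named if they lay in or within 10 kb of the start of Wnt6, Ihh, Epha4 or Pax3, were called in all 22 CTCF libraries, lay in clusters, switched between groups or passed a test, and exceptions are said to be chosen after their values were seen. The members and lists were chosen with earlier results of these data known. Replicate numbers pair the libraries: over 2122 sites the deviations of same-numbered libraries correlated at 0.213 to 0.595, and the number was the best match in 14 of 16 cases, the exceptions being ΔZF1 NPC replicate 1 in both its comparisons. The peak names inside the CTCF rescue lists labelled replicate 4 carry another replicate's number, so all CTCF comparisons were also run without replicate 4. Other alternatives were a −log10 q of at least 5, equal peak numbers, summits chained within 150 bp, quantile-normalized log2 fold enrichment, subsets of replicates and each library left out.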

Additional observations from a re-analysis of the deposited data

Results flagged for a closer look

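In 44 groups of 4 values, each library's gap to its nearest neighbour was compared with the group's range, and 3 libraries stood apart, where chance alone gives about 1 in 20 groups. At the site upstream of Epha4 the percentile of ΔZF1 NPC replicate 3 was 40.13, against 89.9 to 98.6 in the other ΔZF1 NPC libraries, and this library had the fewest CTCF peaks. At the same site WT ESC replicate 4 was at 68.95, against 91.3 to 92.7 in the other WT ESC libraries. ΔZF1 ESC replicate 1 had 97 peaks in the region, against 38 to 46 in the other ΔZF1 ESC libraries, and it had the most peaks of all CTCF libraries.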

How the results depend on the processing

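Of 60 refits of the limma comparisons, 59 gave no call in the region. With the replicate block WT NPCs against WT ESCs gave 1, and the block changed no other call. Differences between groups in the share of CTCF peaks were small enough to change sign. For ΔZF1 against WT ESCs the difference was 0.00031 percentage points with replicates 2 and 3 alone and 0.00315 without replicate 4, and -0.0147 to 0.0165 with each library left out in turn. For ΔZF1 against WT NPCs it was -0.00869 with equal peak numbers and -0.0011 to 0.0385 with a library left out, and for WT NPCs against WT ESCs -0.00344 to 0.0296. The NPC minus ESC difference of the ΔZF1 effect was -0.0261 with equal peak numbers and -0.00339 to 0.0354 with a replicate number left out. The Smc3 differences were 0.0244 (−log10 q of at least 5) and 0.00365 (equal peak numbers) for ΔZF1 against WT NPCs, -0.0193 and 0.0184 for WT NPCs against WT ESCs, 0.0357 and 0.0452 for ΔZF1 NPCs against ΔZF1 ESCs, and -0.000604 and 0 for PodxlpA against E14. PodxlpA against E14 for CTCF was 0.00645 with equal peak numbers.

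Counts of switched sites moved with the replicates used. No genome share was counted under these alternatives, so the counts show how far the number depends on the libraries. They cannot show whether the region differs from other sites. Replicates 1 and 4 alone gave 2 sites only in ΔZF1 ESCs, 4 only in ΔZF1 NPCs, 3 only in WT NPCs against WT ESCs, and 2 only in ΔZF1 NPCs against ΔZF1 ESCs. Replicates 2 and 3 alone gave 1 only in ΔZF1 ESCs and 4 only in WT ESCs, 15 absent from ΔZF1 NPCs and present in WT NPCs, 4 only in WT NPCs against WT ESCs, and 5 absent from ΔZF1 NPCs and present in ΔZF1 ESCs. Without replicate 4, 6 were absent from ΔZF1 NPCs and present in WT NPCs and 1 absent from ΔZF1 NPCs and present in ΔZF1 ESCs, and with equal peak numbers 1 in each direction between WT NPCs and WT ESCs. With a library or a replicate number left out, 1 to 6 sites were absent from ΔZF1 NPCs and present in WT NPCs, 0 to 1 only in WT NPCs against WT ESCs (1 without WT NPC replicate 3) and 0 to 1 absent from ΔZF1 NPCs and present in ΔZF1 ESCs (1 without ΔZF1 ESC replicate 4).

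The share of reproducible sites kept was 46.7 to 88.0% with a library left out, where all 3 others had to have the peak, for ΔZF1 against WT ESCs, 20.9 to 54.5% for ΔZF1 against WT NPCs, 62.2 to 100% for WT NPCs against WT ESCs, and 27.3 to 72.7% for ΔZF1 NPCs against ΔZF1 ESCs. Equal peak numbers gave 88.0%, 81.8%, 92.0% and 81.8%, of only 25, 11, 25 and 11 sites. Reproducibility in 2 of 4 gave 80.3% for ΔZF1 against WT ESCs and 67.7% for ΔZF1 against WT NPCs, and without replicate 4 the shares were 23.1% for ΔZF1 against WT NPCs and 39.1% for ΔZF1 NPCs against ΔZF1 ESCs. All of these are shares in the region. No genome share is given beside them, so they cannot show whether the region differs from other sites. The alternatives without replicate 4, and those for single sites, were chosen after the data were seen. A missing call in a library with few peaks does not show that a site was unbound, and the cause of the differing peak numbers was not tested.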
